A study of Rattus norvegicus with 10 samples.

Results

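Metallothionein and zinc transporter transcripts were followed in cultured heart cells of newborn rats: the metallothioneins Mt1, Mt2A and Mt3, the zinc-sensing transcription factor Mtf1, the zinc exporter Slc30a1, and the zinc importers Slc39a2, Slc39a10 and Slc39a14. These 8 genes were picked by symbol from the 28522 symbols of the count table. The choice rested in part on measured values, because Mt1 and Mt2A had already been seen to fall with phenylephrine in cardiomyocytes. Values of the 8 genes in that comparison are therefore descriptions without a test. The same holds for the difference of the phenylephrine effect between cell types and for Mt1 and Mt2A between cell types, which use the same libraries.

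Ventricular cardiomyocytes, which contract, and cardiac fibroblasts, which lay down connective tissue, were cultured from rats 1 to 3 days old whose strain and sex are not given in the labels. Heart cells were released with enzymes, split into a cardiomyocyte and a fibroblast fraction by Percoll density centrifugation, and given serum-free medium 24 h after plating, either plain or with phenylephrine at 10 µM. Phenylephrine stimulates alpha1-adrenergic receptors and makes cultured cardiomyocytes grow. RNA sequencing covered serum-free cardiomyocytes (n = 3), cardiomyocytes with phenylephrine (n = 3), serum-free fibroblasts (n = 2) and phenylephrine-treated fibroblasts (n = 2). The fibroblasts had reached passage 2 while the cardiomyocytes were unpassaged, so that differences of cell type and of passage cannot be told apart. The time in phenylephrine is not given in the labels, nor is it stated whether replicates were separate cultures, so p-values measure only the spread between these libraries.

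Library totals lay between 18048944 and 22794744 counts. The summed level of 7 cardiomyocyte markers was 34700 to 42800 CPM (counts scaled to 1000000 per library) in cardiomyocyte libraries and 538 to 608 in fibroblast libraries. The sum of 8 fibroblast markers was 29900 to 38800 CPM in fibroblast libraries and 5050 to 10800 in cardiomyocyte libraries, so the cardiomyocyte cultures also held fibroblast transcripts. Leukocyte marker sums were 106 to 160 CPM in cardiomyocyte libraries and 18 to 29.9 in fibroblast libraries. Epicardial sums were 111 to 150 against 28.9 to 42.4 CPM, endothelial sums 71.7 to 95.6 against 58.1 to 64.2. Erythroid sums were 1.25 to 13.7 against 0 to 0.0552 CPM, and smooth muscle and pericyte sums overlapped. A level higher in cardiomyocytes is therefore that of the culture, and its cell of origin was not tested. In bulk RNA, fewer cells of a type and less RNA per cell cannot be told apart. Serum-free cardiomyocyte library 2 and phenylephrine cardiomyocyte library 1 stood apart from their group mates: the chi-square per degree of freedom over genes was 18.3 to 22.6 in their pairs, against 4.2 and 2.99 between the remaining pair of each group. These 2 libraries also carried the most fibroblast transcripts of their groups, 8630 against 5050 and 5370 CPM and 10800 against 7040 and 6860 CPM. Between the 2 serum-free fibroblast libraries the chi-square per degree of freedom was 14.7, and between the 2 treated ones 2.42. With 2 libraries in a group, which of them stands apart cannot be told. Both serum-free fibroblast libraries stayed in the fits called without the libraries that stood apart.

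Metallothioneins are small, cysteine-rich proteins that hold zinc and copper ions and buffer the free zinc of the cell. MTF1 senses a rise in free zinc, enters the nucleus and binds metal response elements, short DNA motifs in the promoters of metallothionein genes and of Slc30a1. Transporters of the Slc30 family move zinc out of the cytosol, and those of the Slc39 family bring it in. In the heart, zinc and metallothionein have been studied for their part in protection from oxidative injury and in contraction.

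The promoters of 7 of the 8 genes were found in a RefSeq table of the GRCr8 build, and those of 4 are shown because they span the range of motif content and of behaviour in these cultures: both abundant metallothioneins, the classical MTF1-controlled exporter Slc30a1, and Slc39a10, whose transcript was higher with phenylephrine. Each line holds the 250 bases before the annotated transcript start, 5′ to 3′ on the strand of the gene. Capitals mark matches on either strand to the core of the metal response element, searched as TGCACNC and TGCGCNC.
Mt1: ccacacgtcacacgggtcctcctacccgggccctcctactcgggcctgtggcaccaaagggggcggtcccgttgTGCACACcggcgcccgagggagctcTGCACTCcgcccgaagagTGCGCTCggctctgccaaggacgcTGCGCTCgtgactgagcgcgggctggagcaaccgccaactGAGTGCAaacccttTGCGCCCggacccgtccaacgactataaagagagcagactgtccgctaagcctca
Mt2A: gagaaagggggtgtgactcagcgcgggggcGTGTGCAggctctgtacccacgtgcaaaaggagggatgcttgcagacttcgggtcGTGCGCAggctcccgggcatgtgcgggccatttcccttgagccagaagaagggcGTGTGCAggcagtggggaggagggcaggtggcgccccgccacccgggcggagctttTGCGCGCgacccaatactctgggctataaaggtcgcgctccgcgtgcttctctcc
Slc30a1: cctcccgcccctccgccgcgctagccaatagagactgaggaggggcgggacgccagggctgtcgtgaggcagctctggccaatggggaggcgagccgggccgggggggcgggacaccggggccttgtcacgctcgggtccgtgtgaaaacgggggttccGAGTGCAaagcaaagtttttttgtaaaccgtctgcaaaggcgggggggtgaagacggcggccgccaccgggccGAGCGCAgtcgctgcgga
Slc39a10: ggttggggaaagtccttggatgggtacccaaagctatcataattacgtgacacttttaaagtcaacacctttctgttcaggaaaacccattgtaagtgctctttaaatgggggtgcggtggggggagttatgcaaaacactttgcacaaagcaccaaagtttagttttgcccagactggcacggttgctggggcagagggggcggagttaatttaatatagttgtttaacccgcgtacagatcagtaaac
The windows lie at chr19:10832976-10833225 on the minus strand for Mt1, chr19:10838709-10838958 on the minus strand for Mt2A, chr13:106021769-106022018 on the plus strand for Slc30a1 and chr9:62405183-62405432 on the plus strand for Slc39a10.

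The Mt1 window held 6 matches, at -176, -151, -133, -109, -69 and -55 from the transcript start, and Mt2A held 4, at -220, -165, -111 and -55. A match on the sense strand at -55 was shared by both genes, each upstream of a TATA box that began at -32 in Mt1 and -31 in Mt2A. Mt3 held 3 matches, and Mtf1 and Slc30a1 held 2 each. No match was found in the windows of Slc39a2 and Slc39a10. Bases past the transcript start were not searched in any gene. Among all 33469 promoters of the table, 20.6% held at least 1 match, 4.9% at least 2, 1.17% at least 3, 0.266% at least 4 and 0.0269% at least 6. A match is a run of letters and not a measured binding site. In the order of genes along chromosome 19, Mt1, Mt2A, Mt3 and Mt4 followed one another between Nup93 and Bbs2.

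**Figure D1:**
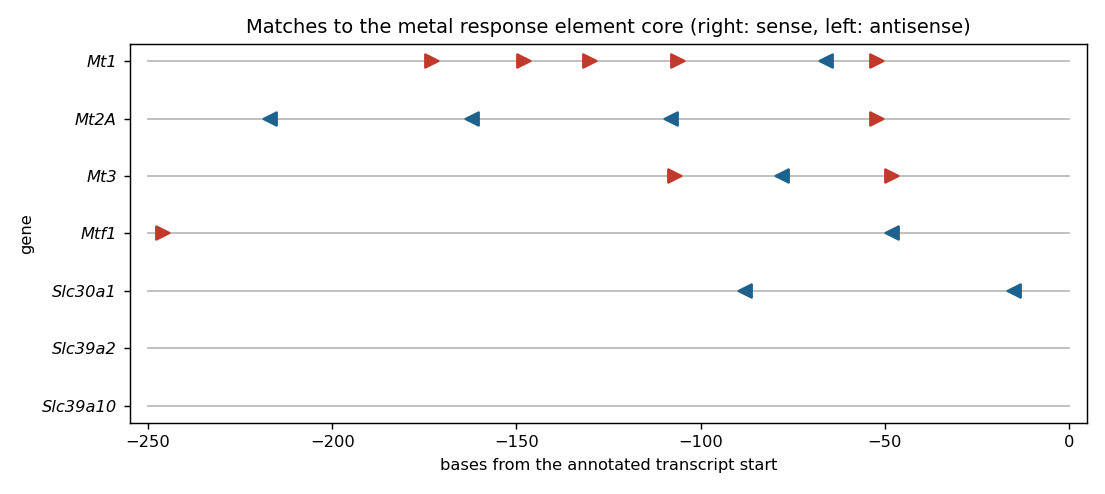
Position of each match to the metal response element core in the 250 bases before the annotated start (x axis, bases from the start) of 7 genes (y axis), with triangles that point right for the sense strand and left for the antisense strand. Mt1 carries 6 matches and Mt2A 4, and the lines of Slc39a2 and Slc39a10 are empty.

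Mt1 was most abundant in serum-free cardiomyocytes, at 26.3, 11.3 and 22.9 CPM in libraries 1, 2 and 3. With phenylephrine the cardiomyocyte libraries held 7.9, 6.9 and 7.33 CPM of Mt1. All 3 treated libraries lay below all 3 serum-free ones, and serum-free library 2, one of the pair that stood apart, lay between its group mates and the treated libraries. The fitted difference was -1.45 ± 0.284 on the log2 scale (± SE), a 2.74-fold lower level.

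Mt2A followed the same course in cardiomyocytes. Its levels were 23.1, 8.99 and 21.6 CPM in the serum-free libraries and 5.62, 6.41 and 6.66 CPM with phenylephrine. The fitted log2 difference was -1.53 ± 0.306, a 2.88-fold lower level, and again the groups did not overlap. Without the 2 libraries that stood apart, the log2 differences were -1.78 for Mt1 and -1.77 for Mt2A.

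Fibroblasts held less of both metallothioneins. Mt1 was at 3.74 and 5.68 CPM in serum-free fibroblasts and at 5.21 and 4.75 CPM with phenylephrine, groups that overlapped. Mt2A was at 2.78 and 3.07 CPM in serum-free fibroblasts and at 4.53 and 4.31 CPM with phenylephrine, so both treated libraries lay above both serum-free ones. By edgeR's quasi-likelihood test, neither fibroblast difference passed: the log2 value of Mt1 was 0.08 ± 0.406 (adjusted p = 0.951) and that of Mt2A 0.59 ± 0.461 (adjusted p = 0.558). Mt2A passed once both cardiomyocyte libraries that stood apart were left out of the joint fit, at nearly the same log2 value of 0.59 with an adjusted p of 0.0208 in edgeR, since the spread is estimated over all groups. That fit called 2056 of 13786 genes for phenylephrine in fibroblasts, against 531 of 13869 with all libraries.

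The order of group means was the same for Mt1 and Mt2A at the top: serum-free cardiomyocytes (20.2 ± 7.86 and 17.9 ± 7.76 CPM, SD, n = 3), then phenylephrine cardiomyocytes (7.38 ± 0.503 and 6.23 ± 0.541 CPM, SD, n = 3). Treated fibroblasts came next (4.98 ± 0.324 and 4.42 ± 0.157 CPM, SD, n = 2) and serum-free fibroblasts last (4.71 ± 1.37 and 2.93 ± 0.206 CPM, SD, n = 2). The neighbours in this order overlapped for Mt1 in the 2 fibroblast groups and did not overlap elsewhere. In serum-free medium the cardiomyocyte level was 4.3 times the fibroblast level for Mt1 and 6.14 times for Mt2A, and with phenylephrine 1.48 and 1.41 times.

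Reads from genes as alike as Mt1 and Mt2A can be split between them or dropped by a read counter, so the values of each are uncertain by an amount the table does not show. Fth1, the ferritin heavy chain, a widely used gene with many near copies, was listed with 0 counts in all 10 libraries. The sum of Mt1 and Mt2A does not depend on how reads are split within the pair. Reads that the counter dropped are missing from the sum too. The sum was 49.4, 20.3 and 44.5 CPM in serum-free cardiomyocytes and 13.5, 13.3 and 14 CPM with phenylephrine, a 2.8-fold lower mean. In fibroblasts the sum was 6.52 and 8.75 CPM without and 9.74 and 9.06 CPM with phenylephrine, a 1.23-fold higher mean. The ratio of Mt2A to Mt1 counts stayed between 0.711 and 0.944 in the cardiomyocyte libraries and between 0.541 and 0.907 in the fibroblast libraries.

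The remaining metallothioneins were at or near 0. Mt3, a metallothionein best known from the brain, had 3, 0 and 4 counts in serum-free cardiomyocytes, 1, 0 and 1 with phenylephrine, 0 and 1 in serum-free fibroblasts and 0 in both treated fibroblast libraries. It was the 1 gene of the 8 that did not pass the filter on low counts, and 7 passed. Mt1m had 2 counts over all libraries, and Mt4 had 0.

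**Figure D2:**
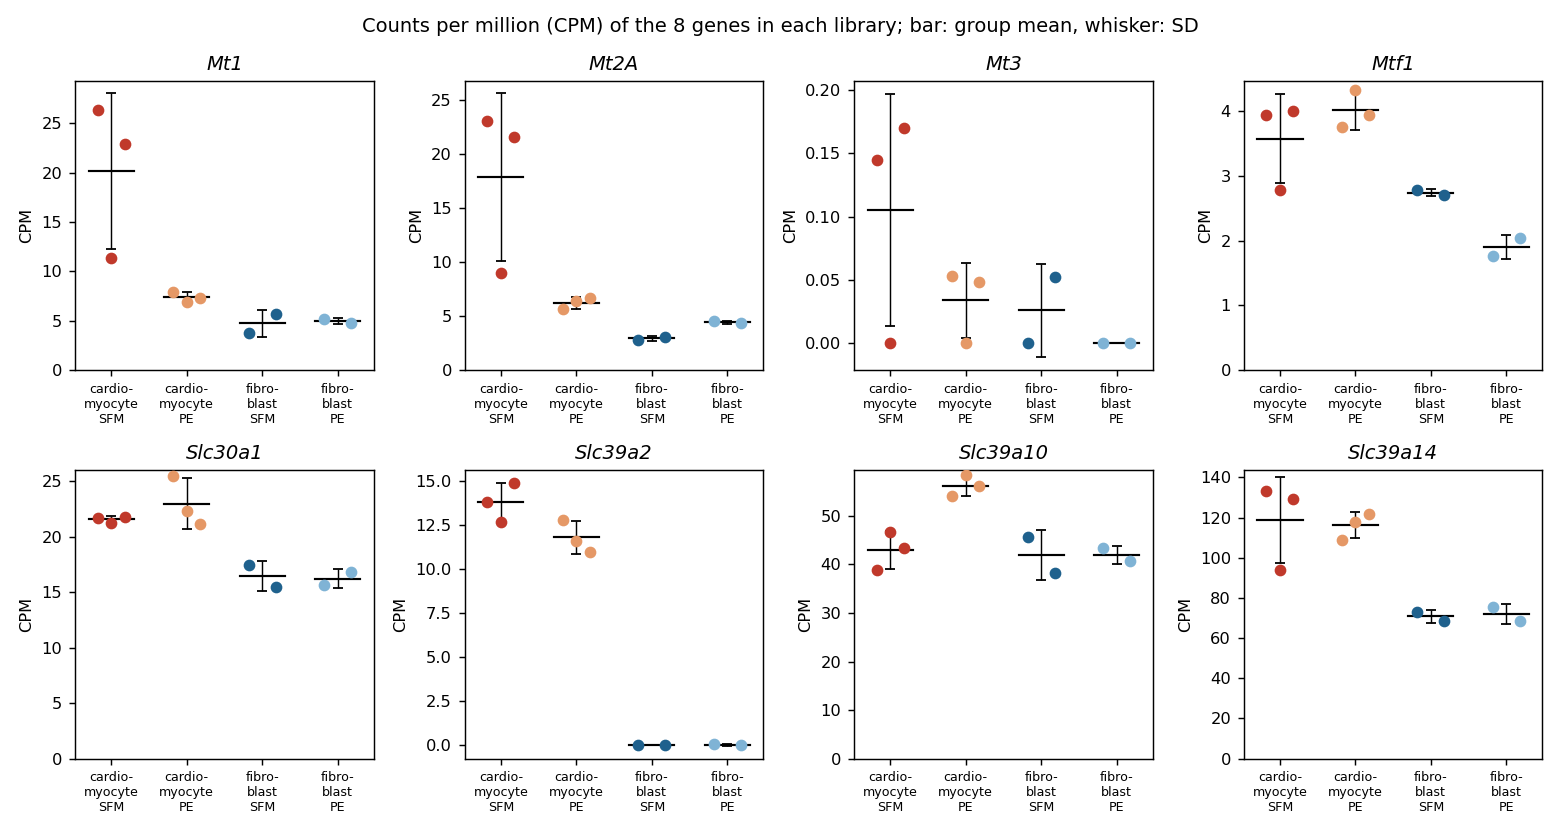
Level of each of the 8 genes (y axis, CPM) in the 10 libraries, grouped on the x axis by cell type and by serum-free medium (SFM) or phenylephrine (PE), with points for libraries, bars for group means and whiskers for SD. Mt1 and Mt2A are highest in serum-free cardiomyocytes, with library 2 (11.3 and 8.99 CPM) well below libraries 1 and 3, and Slc39a2 is at 0 in 3 of 4 fibroblast libraries.

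Mtf1, the zinc sensor, was a scarce transcript that differed between cell types when phenylephrine was present. Its levels were 3.95, 2.78 and 4 CPM in serum-free cardiomyocytes, 3.76, 4.34 and 3.95 CPM with phenylephrine, 2.78 and 2.71 CPM in serum-free fibroblasts and 1.77 and 2.04 CPM in treated fibroblasts. With phenylephrine, Mtf1 was higher in cardiomyocytes by 1.08 ± 0.206 on the log2 scale (edgeR adjusted p = 0.000703), and every cardiomyocyte library lay above both fibroblast libraries.

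In serum-free medium the log2 difference of Mtf1 between cell types was 0.39 ± 0.193 and did not pass (edgeR adjusted p = 0.096). Serum-free cardiomyocyte library 2, at 2.78 CPM, was level with the fibroblasts, and without it the log2 difference was 0.53 and passed (adjusted p = 0.0171 by edgeR). In fibroblasts both treated libraries lay below both serum-free ones, by -0.53 ± 0.231, which did not pass the correction (unadjusted p = 0.0435, adjusted p = 0.261, edgeR). In cardiomyocytes the log2 value with phenylephrine was 0.16 ± 0.164 and the groups overlapped.

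Slc30a1, the plasma membrane exporter that MTF1 switches on, was higher in cardiomyocytes than in fibroblasts in both media. Its levels were 21.7, 21.2 and 21.8 CPM in serum-free cardiomyocytes and 25.5, 22.3 and 21.1 CPM with phenylephrine. Fibroblasts held 17.4 and 15.5 CPM without and 15.6 and 16.8 CPM with phenylephrine. Every cardiomyocyte library lay above every fibroblast library, by 0.39 ± 0.0995 on the log2 scale in serum-free medium (edgeR adjusted p = 0.00463) and by 0.50 ± 0.1 with phenylephrine (adjusted p = 0.000982). Without serum-free fibroblast library 2, the serum-free difference was 0.30 and did not pass (edgeR adjusted p = 0.0585).

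Phenylephrine left Slc30a1 within the spread of its libraries: the log2 value was 0.09 in cardiomyocytes, where the groups overlapped, and -0.02 in fibroblasts (edgeR adjusted p = 0.959). The cardiomyocyte values of Slc30a1 did not share the lower level of the metallothioneins with phenylephrine. Whether the motif matches in its promoter window, or in those of Mt1 and Mt2A, bear on these levels was not tested.

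Slc39a2, a plasma membrane importer with few described roles, was found almost exclusively in the cardiomyocyte libraries. It was at 13.8, 12.7 and 14.9 CPM in serum-free cardiomyocytes and at 12.8, 11.6 and 11 CPM with phenylephrine. The serum-free fibroblast libraries had 0 counts against 876 in the 3 cardiomyocyte libraries, so the cardiomyocyte level was at least 181-fold higher with the fibroblast group set at a floor of 3 counts over the group. With phenylephrine the fibroblasts had 1 count and the cardiomyocytes 684, a ratio of 440 with a 95% exact counting interval from 78.7 to 17400. Slc39a2 passed the filter on low counts through the cardiomyocyte libraries alone, so its difference between cell types carries no test. In cardiomyocytes the log2 value with phenylephrine was -0.23 ± 0.12, with overlapping groups, and -0.35 without the libraries that stood apart.

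Slc39a10, an importer of the plasma membrane that MTF1 represses in mouse cells when zinc is high, moved opposite to the metallothioneins in cardiomyocytes. Its levels were 38.8, 46.6 and 43.4 CPM in serum-free cardiomyocytes and 54, 58.4 and 56.2 CPM with phenylephrine. The groups did not overlap, and the fitted log2 difference was 0.39 ± 0.0836, a 1.31-fold higher level. Without the libraries that stood apart it was 0.48.

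In fibroblasts the libraries held 45.6 and 38.3 CPM of Slc39a10 in serum-free medium and 43.3 and 40.6 CPM with phenylephrine, with a log2 difference of 0.00 ± 0.104 (edgeR, unadjusted p = 0.995 and adjusted p = 1). Between cell types, Slc39a10 did not pass in serum-free medium (log2 value 0.03, adjusted p = 0.777, edgeR). With phenylephrine it was higher in cardiomyocytes by 0.42 ± 0.0949 (adjusted p = 0.00209, edgeR), and this comparison shares its treated cardiomyocyte libraries with the description above.

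Slc39a14, an importer of zinc that also carries iron and manganese, was higher in cardiomyocytes. It was at 133, 94 and 129 CPM in serum-free cardiomyocytes, 109, 118 and 122 CPM with phenylephrine, 73.2 and 68.5 CPM in serum-free fibroblasts and 75.7 and 68.4 CPM in treated fibroblasts. All cardiomyocyte libraries lay above all fibroblast libraries. The log2 difference was 0.75 ± 0.134 in serum-free medium (edgeR adjusted p = 0.000608) and 0.69 ± 0.134 with phenylephrine (adjusted p = 0.00111). With phenylephrine it differed by -0.03 ± 0.116 in cardiomyocytes and by 0.03 ± 0.146 in fibroblasts, with overlapping groups in both.

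Mt1 and Mt2A, whose values entered the choice, and Slc39a2, which passed the filter through cardiomyocytes alone, were left out of the counts between cell types. Of the rest, 2 of 4 were called higher in cardiomyocytes in serum-free medium (Slc30a1 and Slc39a14) and all 4 with phenylephrine. Between cell types 66.1% of all 13869 tested genes were called in serum-free medium, 34.5% higher and 31.7% lower in cardiomyocytes. With phenylephrine 65.0% were called, 33.7% higher and 31.2% lower. With 4 genes counted, these shares are not set apart from those of all genes. For phenylephrine in fibroblasts, edgeR called 0 of 6 genes, against 3.83% of all tested genes, with 1 (Mtf1) at an unadjusted p under 0.05. DESeq2 and limma-voom called 0 of the same 6.

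**Figure D3:**
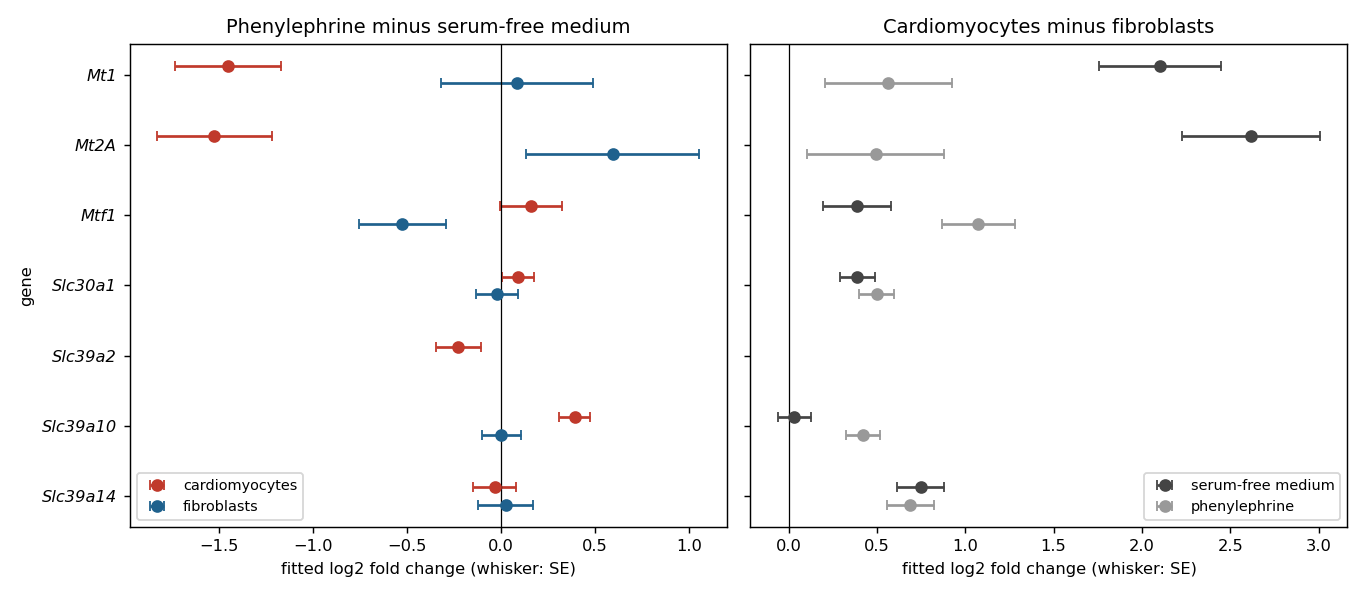
Fitted log2 fold changes (x axis) with SE whiskers of the 7 genes past the filter (y axis), for phenylephrine minus serum-free medium in each cell type (left) and cardiomyocytes minus fibroblasts in each medium (right). Mt1 (-1.45) and Mt2A (-1.53) lie furthest to the left in the left panel, both in cardiomyocytes, Slc39a10 (0.39) lies to the right, and Slc39a2 is drawn for cardiomyocytes alone because fibroblasts had 0 or 1 count.

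Set side by side, the phenylephrine effect in cardiomyocytes minus that in fibroblasts was -1.54 for Mt1, -2.12 for Mt2A, 0.69 for Mtf1 and 0.39 for Slc39a10 on the log2 scale. These differences contain the values that chose the genes and carry no test. Across all genes, 3.25% were called for a difference in the effect between cell types.

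Over the 6 cardiomyocyte libraries, Mt1 and Mt2A tracked each other with a Pearson r of 0.986 in log2 CPM. Slc39a10 ran opposite, at r = -0.967 with Mt1 and -0.926 with Mt2A, and Slc39a2 ran with Mt1 at 0.871. Mtf1 was unrelated to Mt1 (r = -0.0174) and tracked Slc39a14 (0.821), both of them lowest in serum-free library 2 among the untreated libraries. The 6 libraries include both treatments and the 2 that stood apart, so these coefficients describe the libraries and mix the treatment with other differences between them.

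Among 8715 candidate genes with at least 10 CPM on average, those with the profile most like Mt1 over the 6 cardiomyocyte libraries were Nabp2, Taf1c, Alcam and Bdh2 (r = 0.998 each) and Klf15 (0.996). For Mt2A they were Atp6v1a (0.999), Uap1l1 and Abcc4 (0.998), and Sat2 and Icam1 (0.997). Over all 10 libraries, Usf2 and Abtb1 were among the 5 closest for both genes, with r = 0.984 and 0.98 for Mt1 and 0.979 and 0.977 for Mt2A. The closest to Slc39a2 over all libraries were Tox3, Ptgfr, Upk1b, Smyd1 and Cmya5, at r of at least 0.999, a ranking set by the contrast between cell types. For Mtf1 over the cardiomyocyte libraries the closest were Prdm2 (0.992), Pogk (0.984) and Stxbp4 (0.979).

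**Figure D4:**
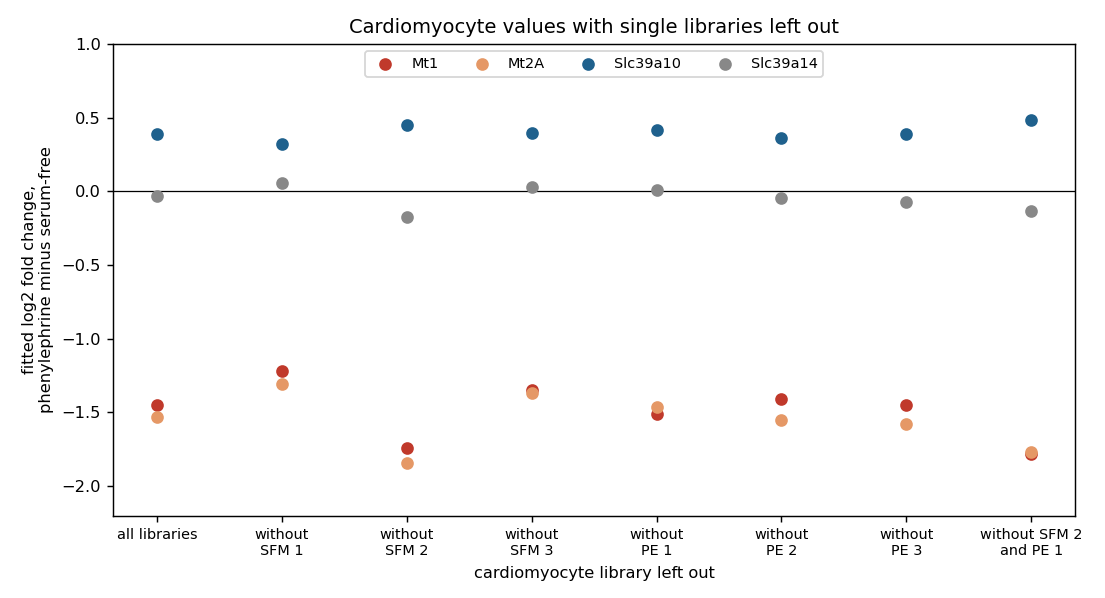
Fitted log2 fold change of phenylephrine minus serum-free medium in cardiomyocytes (y axis) for 4 genes when single cardiomyocyte libraries, or both that stood apart, are left out (x axis). Mt1 stays between -1.78 and -1.22 and Mt2A between -1.84 and -1.31, Slc39a10 stays between 0.32 and 0.48, and Slc39a14 moves around 0.

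The other zinc transporters of both families differed between cell types in both directions. Of 20 listed, 16 passed the filter on low counts. In serum-free medium 3 were higher in cardiomyocytes and 9 lower, and with phenylephrine 4 were higher and 9 lower, by edgeR at an adjusted p under 0.05. Slc39a4, among the 4, had 22 counts in the treated cardiomyocyte libraries against 3 in the treated fibroblast libraries. With at most 4 counts in any fibroblast library, it passed the filter through the cardiomyocyte libraries alone, so its call is not a test. The 12 called of 16 in serum-free medium stand beside the 66.1% of all genes (34.5% higher and 31.7% lower). The 13 with phenylephrine, Slc39a4 included, stand beside 65.0% (33.7% and 31.2%). The median log2 difference of the 16 was -0.22 and -0.16, beside 0.02 over all tested genes in each medium. Of the 9 lower transporters in each medium 6 were importers and 3 belonged to the Slc30 family.

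Slc30a3, the transporter that loads zinc into synaptic vesicles in neurons, was the most cardiomyocyte-biased of these 16. It had 31 to 43 CPM in serum-free cardiomyocytes and 1.42 to 1.72 CPM in serum-free fibroblasts, a log2 difference of 4.56 ± 0.211 (edgeR adjusted p = 8e-09). With phenylephrine the difference was 4.73 ± 0.214 (adjusted p = 6.91e-09). Slc30a9, a transporter of the mitochondrial membrane, was higher in cardiomyocytes by 0.41 ± 0.0561 and 0.66 ± 0.0571 in the respective media.

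Among the importers, Slc39a3 of the plasma membrane was lower in cardiomyocytes by 1.03 ± 0.0915 in log2 terms in serum-free medium, at 11.5 to 12.1 CPM against 23 to 25.4 CPM. Slc39a6, the closest relative of Slc39a10, had a log2 difference of -0.90 ± 0.0735, while Slc39a10 was at 0.03. Slc39a7, which releases zinc from the endoplasmic reticulum and Golgi, had -0.80 ± 0.0605, and Slc39a13, of the Golgi and vesicles, had -0.59 ± 0.0686. With phenylephrine these 4 were at -1.16, -0.89, -0.59 and -0.42, all past the edgeR threshold.

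**Figure D5:**
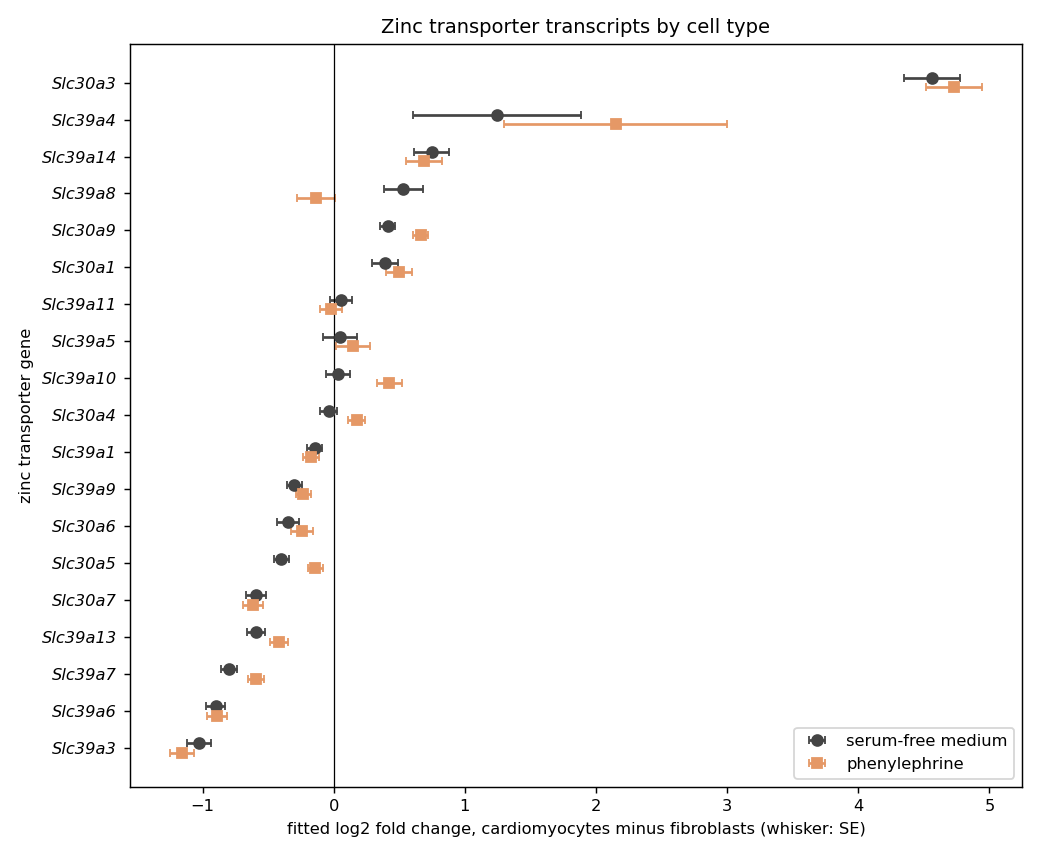
Fitted log2 difference between cardiomyocytes and fibroblasts (x axis, SE whiskers) for 19 zinc transporter genes (y axis), in serum-free medium (circles) and with phenylephrine (squares). Slc30a3 stands far to the right at 4.56 and 4.73, Slc39a14 and Slc30a1 lie to the right in both media, and Slc39a3 is furthest to the left at -1.03 and -1.16. Slc39a2 is left out because fibroblasts had 0 or 1 count.

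Few of these 16 transporters passed the test for phenylephrine. In cardiomyocytes edgeR called 0 of them, against 3.63% of all tested genes, with 2 (Slc39a7 and Slc39a8) at an unadjusted p under 0.05, and DESeq2 and limma-voom called 0. Their log2 values lay between -0.38 (Slc39a4) and 0.16 (Slc39a5). Without both libraries that stood apart, 25.3% of all genes were called in cardiomyocytes and 1 of the 16, Slc39a8, an importer of zinc and manganese, at -0.50 ± 0.126 (edgeR adjusted p = 0.00661). In fibroblasts Slc30a9 fell by 0.30 ± 0.062 on the log2 scale (edgeR adjusted p = 0.0214), from 61.2 and 61.8 CPM to 49.3 and 50.6 CPM. It was the 1 call among the 16, beside 3.83% of all tested genes. That call was lost in each fit that left out 1 fibroblast library.

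Metallothionein genes also respond to other metals, glucocorticoids, oxidative stress and interleukin 6, and lists of such genes were read in the cardiomyocyte comparison. Of 15 tested copper and iron genes, 2 fell, by edgeR, beside the 3.63% of all genes. Ftl1, the light chain of the iron store ferritin, fell from 322 ± 41.4 to 215 ± 8.94 CPM (SD, n = 3 each), by 0.58 ± 0.0842 on the log2 scale (adjusted p = 0.00838, edgeR). Slc11a1, an iron and manganese transporter of macrophages, fell by 0.98 ± 0.217 (edgeR adjusted p = 0.0374). The list's median log2 value was -0.10, and 5 of the 15 were called without the libraries that stood apart, 2 higher and 3 lower, in a fit that called 25.3% of all genes. The Ftl1 call was lost without phenylephrine library 2 or 3 (edgeR adjusted p = 0.063 and 0.0513). That of Slc11a1 was lost with the replicate block (0.064), with the compared groups alone (0.1) and in 4 of the 6 fits that left out a cardiomyocyte library (adjusted p = 0.0897 to 0.174, edgeR).

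Of 13 glucocorticoid-responsive genes, Klf9, a transcription factor, rose by 0.31 ± 0.0633 and Sgk1, a kinase, fell by 0.72 ± 0.166 on the log2 scale (edgeR adjusted p = 0.0281 and 0.0476), 2 calls beside the 3.63% of all genes. The Sgk1 call was lost with relative log expression factors (0.0505), no filter (0.0652) and the filter at 10 CPM (0.0516), that of Klf9 with the replicate block (0.0839), and both with the compared groups alone (Sgk1 0.118, Klf9 0.0686) and without serum-free library 1 or 3 or phenylephrine library 2 or 3. Without both libraries that stood apart 7 of the 13 were called, 4 higher and 3 lower, beside 25.3% of all genes, and without phenylephrine library 1 alone 6 were, beside 7.83%. Of 10 oxidative stress genes under the factor Nrf2, edgeR called 0, with 5 at an unadjusted p under 0.05. DESeq2 called 3 and limma-voom 0. Their median was -0.27, beside 0.00 over all tested genes, and without both libraries 5 were called, all lower (Nqo1, Gclc, Txnrd1, Slc7a11 and Gsr), again beside 25.3% of all genes.

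Of 10 genes of interleukin 6 signalling, edgeR called 0, with 3 at an unadjusted p under 0.05, DESeq2 1 and limma-voom 0, and 3 were called without both libraries, Junb higher and Osmr and Lcn2 lower, beside the same 25.3%. These counts rested on few libraries: without serum-free library 2 alone, 4 copper and iron genes and 4 oxidative stress genes were called, in a fit that called 17.1% of all genes. Leaving out 1 of the remaining cardiomyocyte libraries 1 and 3 (serum-free) or 2 and 3 (phenylephrine) left at most 1 call in any of the 4 lists.

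The summed levels of some marker lists also differed between the serum-free and the treated cardiomyocyte libraries. Few markers were called, beside the 3.63% of all genes. Cardiomyocyte markers summed to 34700 to 35900 CPM in serum-free and 37300 to 42800 CPM in treated libraries, without overlap and with 0 of 7 called. Fibroblast markers summed to 5050 to 8630 against 6860 to 10800 CPM, ranges that overlapped, with 0 of 8 called. The sum of 8 leukocyte markers was 137 to 160 CPM in serum-free and 106 to 133 CPM in treated libraries, with 2 of 8 markers called lower and none at 0. The sum of 3 erythroid markers was 9.36 to 13.7 against 1.25 to 4.35 CPM, with 0 of the 2 tested called. The sum of 6 smooth muscle and pericyte markers was 3380 to 4930 against 5260 to 5980 CPM, with 1 called higher. Endothelial markers (71.7 to 85 against 78.6 to 95.6 CPM, 1 of 6 called higher) and epicardial markers (126 to 135 against 111 to 150 CPM, 0 of 6 called) overlapped. The part of any of these lists in the lower metallothionein levels was not tested.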

How the data were processed

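RNA was sequenced, per the labels, as 10 TruSeq v2 libraries on 1 lane. Per the submitters' processing notes, the tools were cutadapt, TopHat2 2.0.10, HTSeq 0.6.1p1 and DESeq2 1.6.3 with the rat build Rnor_6.0; annotation release and strand setting are not given in the sources used here. The deposited table holds whole-number read counts per gene symbol and library, without normalization. Its 10 further per-library columns were not used.

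Library sizes were adjusted by trimmed mean of M values (TMM) factors. The filter filterByExpr, with a minimum count of 10 and a minimum total of 15, left 13869 of 28522 symbols. In edgeR 4.0.16 (R 4.3.3), 1 robust quasi-likelihood model with a coefficient for each group held all 10 libraries. Tests were two-sided; calls used Benjamini-Hochberg adjustment over all tested genes, at 0.05. Log2 values are fitted fold changes with their standard error. Intervals and floors cover counting error only. Data were simulated at these depths with 13869 genes, each with the spread typical of its level and without libraries that stand apart. On them the test found 89 of 100 genes changed 2-fold for phenylephrine in cardiomyocytes and 86 of 100 in fibroblasts. Genes with a wider spread, and libraries that stand apart, are present in the measured counts, so these shares need not hold there. Whether a 2-fold change would be found at the fibroblast SE of Mt1 (0.406) or Mt2A (0.461) was not tested.

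The members and lists were chosen with earlier results of these data known. Every member is named, and of each list up to 4 genes of smallest adjusted p per contrast, together with zinc transporters and genes called in the alternatives where the text says so. Closest profiles are the 5 genes of highest r in log2 CPM (prior count 2). All 8 symbols matched current names in the RefSeq table. Alternatives were relative log expression factors, library size alone, DESeq2 1.42.0, limma-voom (limma 3.58.1), no filter, a filter at 10 CPM, the compared groups alone, a replicate block, each library left out, and both libraries that stood apart left out. For the motif, a looser core TGCNCNC and the last 100 bases were tried.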

Additional observations from a re-analysis of the deposited data

Results flagged for a closer look

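Mt2A had log2 values of opposite sign in the cell types: with phenylephrine it was at -1.53 in cardiomyocytes, lower in every treated library, and at 0.59 in fibroblasts, higher in both treated libraries, a difference of -2.12. The fibroblast value did not pass (edgeR adjusted p = 0.558). The cardiomyocyte value and the difference were not tested, because Mt2A was chosen on the cardiomyocyte values.

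Ftl1, the ferritin light chain, had a log2 value of -0.58 in cardiomyocytes and 0.12 in fibroblasts, and the difference of -0.71 passed the test of the effect between cell types (edgeR adjusted p = 0.0175). Nqo1, an oxidoreductase under Nrf2, had -0.42 and 0.65, a difference of -1.06 (edgeR adjusted p = 0.0222). Neither of these 2 Nqo1 values passed alone (edgeR adjusted p = 0.0933 in cardiomyocytes and 0.0549 in fibroblasts). For this difference, Ftl1 was the 1 call among 15 copper and iron genes and Nqo1 the 1 among 10 oxidative stress genes. The glucocorticoid and interleukin 6 lists had 0 calls, and 3.25% of all genes were called.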

How the results depend on the processing

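Of 187 tested member fold changes recomputed under the alternatives, 168 kept their direction and their side of the threshold, 3 gained a call, 1 lost it, and 15 without a call changed sign. Of 267 that carry no test, 264 moved by less than the gene's own spread between replicates, and 7 of the 267 changed sign. For Mt1 and Mt2A in cardiomyocytes that spread includes serum-free library 2. The lower Mt1 and Mt2A and the higher Slc39a10 of treated cardiomyocytes kept their sign in every alternative run. Leaving out single libraries gave 1 to 3 members called between cell types in serum-free medium, against 2. Without both libraries that stood apart, 1 member was called for phenylephrine in fibroblasts, Mt2A, in a fit that called 2056 of 13786 genes there.

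Counts over all genes depended on the fit. For phenylephrine in cardiomyocytes 503 genes were called, against 968 with DESeq2, 91 with the compared groups alone, 197 with the replicate block, 3486 without both libraries that stood apart, and 32 to 2371 with single libraries left out. In fibroblasts the count was 531, against 1306, 225, 2056 and 112 to 516 in the last 4 of these settings. For the difference between cell types it was 451, against 790 with DESeq2, 198, 2657 and 71 to 1290; the compared groups alone give no separate value there. The cause was not tested. Fits with libraries left out hold fewer samples, yet some of them called more genes and others fewer.

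Among the other zinc transporters, the 1 call in fibroblasts became 0 with library size alone, 0 with the replicate block, 2 with DESeq2, 2 with the filter at 10 CPM, 2 without both libraries and 0 with single libraries left out. The 13 calls between cell types with phenylephrine became 8 with the block and 8 to 12 with single libraries left out. In cardiomyocytes 1 was called without both libraries and 0 with single libraries left out. For the difference between cell types 2 were called without both libraries and 0 to 1 with single libraries left out.

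Deviations of same-numbered libraries from their group means had r = -0.224, -0.101 and 0.0198 in cardiomyocytes and -0.0413 in fibroblasts. Not every library correlated best with its own number. In groups this small the deviations constrain one another, and the fibroblasts give a single value apart from its sign. The check therefore cannot exclude pairing. The numbers are taken as names, with the replicate block as an alternative. With the block, Mt1 was at -1.39 and Mt2A at -1.44 in cardiomyocytes. Mtf1 is below the filter at 10 CPM. In the last 100 bases Mt1 held 2 motif matches and Mt2A 1, and the looser core gave 7 and 5. Depth limits Mt3, which had at most 4 counts in a library, so no difference was detectable.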
